A study of Mus musculus with 8 samples.

Results

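The genes described here encode the secreted and membrane-bound matrix metalloproteinases (MMPs), the ADAMTS proteinases (a disintegrin and metalloproteinase with thrombospondin motifs), the ADAMTS-like proteins and the tissue inhibitors of metalloproteinases (TIMPs). They were taken as every array feature whose platform gene symbol is Adamts, Adamtsl or Mmp plus a number (Mmp also with a letter) or Timp1 to Timp4. This gave 88 of 62976 features for 51 of the 20842 genes tested. The RNA came from lungs of C57Bl/6J mouse pups kept in a chamber at 20% oxygen from postnatal day 0 to day 3, and each of 8 lungs was hybridised to a 1-colour (Cy3) Agilent array. Of the pups, 4 are labelled Fgf10 +/- (TG in their titles), that is, they have 1 disrupted and 1 intact copy of Fgf10, the gene of fibroblast growth factor 10, and the other 4 are labelled wild-type. Strain, oxygen and age are common to all 8, and the labels do not say how the allele was disrupted, nor the litter or sex. All 8 are described as independent samples. If some of them share a litter, the p-values measure only the spread between these pups.

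MMPs and ADAMTS enzymes are zinc proteinases that cut the proteins around cells. MMPs are grouped by what they cut and where they sit, as collagenases, gelatinases, stromelysins, matrilysin and membrane-type enzymes. Many ADAMTS enzymes cut large proteoglycans such as versican and aggrecan, and others trim the ends of procollagens so that fibrils can form. ADAMTS-like proteins share the ancillary domains of ADAMTS enzymes but lack the proteinase domain, and several of them bind fibrillin microfibrils. TIMPs block the active site of MMPs, and TIMP3 also inhibits several ADAMTS enzymes. In the newborn lung the matrix is being rebuilt as alveoli form. FGF10 is made by lung mesenchyme and signals to the epithelium through FGFR2.

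The promoters of 4 members are shown because these genes frame the results: Adamtsl2 and Mmp11 separate the groups in opposite directions, Adamts2 is a procollagen proteinase gene with several GC boxes, and Mmp10 stands for a cluster of MMP genes with little signal. The sequences are RefSeq's (GRCm38.p6), from 250 bases before to 50 bases after the start site, read 5′ to 3′ on the gene's strand. Capitals mark, on either strand, the GC box letters GGGCGG, the TATA letters TATAAA, the AP-1 letters TGANTCA and the ETS (PEA3) letters AGGAAG. The Adamtsl2 window is chr2:27079129-27079428 on the + strand, that of Mmp11 is chr10:75932453-75932752 on the - strand, that of Adamts2 is chr11:50601835-50602134 on the + strand and that of Mmp10 is chr9:7502092-7502391 on the + strand.
Adamtsl2: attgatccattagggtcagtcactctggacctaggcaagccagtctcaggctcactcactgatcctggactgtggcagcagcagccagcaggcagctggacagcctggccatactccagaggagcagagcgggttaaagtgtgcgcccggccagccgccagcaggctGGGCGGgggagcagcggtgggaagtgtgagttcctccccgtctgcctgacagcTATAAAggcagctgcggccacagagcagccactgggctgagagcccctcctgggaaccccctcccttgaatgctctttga
Mmp11: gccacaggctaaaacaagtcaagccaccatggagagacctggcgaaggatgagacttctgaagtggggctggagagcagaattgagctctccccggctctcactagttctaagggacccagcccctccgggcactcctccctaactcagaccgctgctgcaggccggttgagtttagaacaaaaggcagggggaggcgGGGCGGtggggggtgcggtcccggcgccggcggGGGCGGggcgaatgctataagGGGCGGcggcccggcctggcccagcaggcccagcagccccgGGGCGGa
Adamts2: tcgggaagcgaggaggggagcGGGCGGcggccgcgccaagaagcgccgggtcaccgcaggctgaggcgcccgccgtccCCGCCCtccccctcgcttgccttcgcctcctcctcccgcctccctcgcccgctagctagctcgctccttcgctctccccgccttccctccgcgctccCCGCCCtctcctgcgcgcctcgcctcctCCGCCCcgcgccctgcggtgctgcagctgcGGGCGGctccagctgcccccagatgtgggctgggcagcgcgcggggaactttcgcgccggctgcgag
Mmp10: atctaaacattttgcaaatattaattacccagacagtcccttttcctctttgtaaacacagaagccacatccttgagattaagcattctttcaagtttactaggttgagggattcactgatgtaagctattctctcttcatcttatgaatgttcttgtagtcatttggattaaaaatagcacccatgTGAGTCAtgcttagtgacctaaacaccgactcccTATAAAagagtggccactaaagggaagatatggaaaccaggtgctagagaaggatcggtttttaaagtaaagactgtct
The Adamtsl2 window holds 1 GC box and, 30 bases before the start site, 1 TATA match. The windows of Mmp11 and Adamts2 hold 4 and 5 GC boxes and no TATA match, while that of Mmp10 holds 1 AP-1 match 63 bases before the start site and 1 TATA match. None of the marked matches overlap. A match is a string of letters and not a shown binding site.

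The labels were checked first. Fgf10 itself was not lower in the lungs labelled Fgf10+/-, at 7.95 ± 0.32 against 7.46 ± 0.40 in wild-type lungs (SD, n = 4 each; two-sided exact permutation p = 0.0857). All 10 of its features had a higher mean in the lungs labelled Fgf10+/-, and the difference of 0.49 was 0.31 as their average and 0.30 without wild-type replicate 3. Whether the 10 Fgf10 features are different probes or repeat spots of 1 probe is not stated, so they may not be separate measurements. The sources used here do not place its features relative to the disrupted part, and every direction below therefore rests on the labels. All markers of lung epithelium, vessels and fibroblasts lay at a mean log2 signal of at least 4. One library stood apart. Cartilage markers reached 14.12 in wild-type replicate 4 and lay between 7.00 and 7.52 in the other 7 libraries as the log2 of their summed linear signals, and skeletal muscle markers reached 12.13 in the same library.

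The signal of these genes fell into a measurable and a dim part. A mean log2 signal under 4 over the 8 arrays, close to the array median of 3.47, is called dim here, and 24 of the 51 members were dim while 27 were not. Closest to that limit were Mmp9 (4.05) and Adamtsl1 (4.08) on one side and Adamts12 (3.77) and Timp4 (3.74) on the other. The dim members were Adamts3, Adamts6, Adamts12, Adamts13, Adamts16, Adamts18, Adamts20, Adamtsl3, Timp4 and, among the MMPs, Mmp1a, Mmp1b, Mmp3, Mmp7, Mmp10, Mmp12, Mmp13, Mmp16, Mmp19, Mmp20, Mmp21, Mmp24, Mmp25, Mmp27 and Mmp28. In the RefSeq gene order 10 members are direct neighbours on chromosome 9 (Mmp13, Mmp12, Mmp1b, Mmp3, Mmp1a, Mmp10, Mmp8, Mmp27, Mmp20 and Mmp7), and all of them but Mmp8 were dim. RefSeq promoter windows were at hand for 36 members. The AP-1 letters stood in 8 of 20 dim members and in 0 of 16 of the others, against 8.97% of all 27025 genes with a window. GC box letters stood in 8 of 20 dim members and in 14 of 16 of the others, against 38.2% of all genes. TATA letters stood in 9 of 20 and 3 of 16, against 15.7% of all genes, and ETS letters in 11 of 20 and 4 of 16, against 38.4% of all genes. All 8 members with AP-1 letters are among the chromosome 9 neighbours, as are the dim members with TATA letters except Mmp21. The AP-1 and TATA counts thus describe mainly that run of related genes and not dim members in general. None of the 10 neighbours held GC box letters, and the 8 dim members with them all lie outside the run. The GC box gap between dim and other members thus also leans on that run.

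No member passed the test between the groups. With limma and Benjamini-Hochberg adjustment, 0 of 51 members and 0 of 20842 genes (0%) had an adjusted p under 0.05. At an unadjusted p under 0.05, 8 members (15.7%) were higher and 1 (1.96%) was lower in Fgf10+/- lungs, where 4.74% of all genes tested were higher and 6.29% lower. Those 8 were Adamtsl2, Adamts7, Adamts2, Adamts8, Mmp17, Adamts4 and the dim Mmp10 and Mmp12, and the lower one was Mmp11. The mean was higher in Fgf10+/- lungs for 37 members (72.5%) and lower for 14, against 49.8% higher among all genes. The median difference in log2 signal, Fgf10+/- minus wild type, was 0.16 over the members and -0.0012 over all genes. Members are not independent of each other, and these counts describe the 8 arrays.

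**Figure D1:**
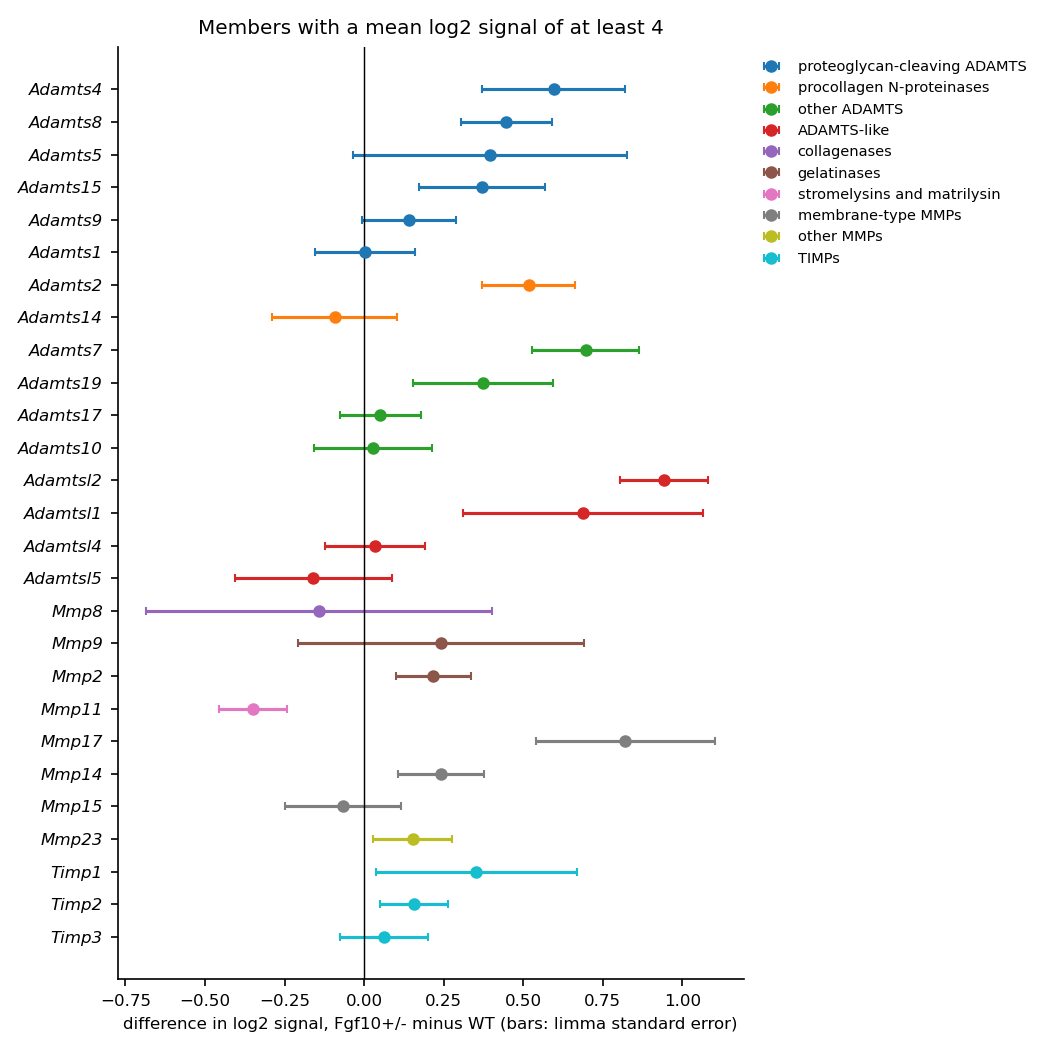
Difference in log2 signal, Fgf10+/- minus wild type (horizontal axis), for the 27 members with a mean log2 signal of at least 4, coloured by role; points are differences and bars are limma's standard errors. Adamtsl2 lies farthest to the right at 0.94, and Mmp11, at -0.35, lies farthest to the left.

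The groups did not overlap for 3 members, 2 higher (3.92%) and 1 lower (1.96%) in Fgf10+/- lungs, against 7.39% of all genes apart. Of all genes 2.99% were apart and higher and 4.40% apart and lower. The count moved when 1 library was left out, which also makes separation easier for every gene. It was 11 without Fgf10+/- replicate 3 (11.6% of all genes), 9 without wild-type replicate 4 (13.7%), 5 without Fgf10+/- replicate 4 (10.2%), 5 without wild-type replicate 1 (9.72%), and 13 without both Fgf10+/- replicate 3 and wild-type replicate 4 (19.2%). Of the 10 members with the smallest p among those not dim, Fgf10+/- replicate 3 was the lowest array of its group for 7, and wild-type replicate 4 was the highest of its group for 6.

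Adamtsl2 had the smallest p of all members. It encodes a secreted ADAMTS-like glycoprotein that binds fibrillin and LTBP1, and its human gene is mutated in geleophysic dysplasia. Its log2 signals were 6.01, 6.41, 6.28 and 6.01 in Fgf10+/- lungs, against 5.25, 5.45, 5.15 and 5.10 in wild-type lungs. Every Fgf10+/- value lay above every wild-type value, at 6.18 ± 0.20 against 5.24 ± 0.15 (SD, n = 4 each). The log2 difference of 0.94 (SE 0.14), a ratio of 1.92, had a limma adjusted p of 0.0813, which does not pass. Its two-sided exact permutation p was 0.0286, the smallest that 70 assignments can give. Every gene whose groups do not overlap has that same permutation p, here as for Mmp11 and Mmp17, so it only restates the separation. The adjusted p was 0.0232 when genes with a mean log2 under 4 were left out of the fit and 0.0295 under robust settings and a variance trend, and over the other alternatives it ran up to 0.293. Adamtsl2 has 1 feature on the array, so no second probe bears on it.

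Adamtsl1, the other ADAMTS-like member with a difference of over 0.5, is a secreted matrix protein also called punctin. It stood at 4.55, 4.53, 4.06 and 4.57 in Fgf10+/- lungs, against 4.43, 2.58, 4.15 and 3.81 in wild-type lungs. Wild-type replicate 2 lay far below the others, the groups overlapped, and without that library the difference of 0.69 (SE 0.38) was 0.30. The other Adamtsl1 features were dim and differed by 0.25 and 0.09, so the average of all 3 was 0.34. Adamtsl4, linked in humans to lens dislocation through fibrillin microfibrils, stood at 7.49, 7.33, 7.51 and 7.36 against 7.44, 7.24, 7.10 and 7.78 in wild-type lungs. The wild-type values spanned the Fgf10+/- ones, with a difference of 0.03 (SE 0.16). Adamtsl5 differed by -0.16 (SE 0.25).

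Enzymes that cut proteoglycans had mostly higher values in Fgf10+/- lungs, and none passed. All 7 of them had a higher mean, against 49.8% of all genes, and these include the dim Adamts20 and Adamts1, whose difference was near 0. At an unadjusted p under 0.05, 2 were higher, Adamts8 and Adamts4, against 4.74% of all genes. Adamts4 encodes an aggrecanase that also cuts versican. It stood at 8.68, 8.69, 8.44 and 8.70 in Fgf10+/- lungs, against 7.62, 8.21, 7.70 and 8.61 in wild-type lungs. Wild-type replicate 4 alone reached into the Fgf10+/- range, and Fgf10+/- replicate 3 stood below the other 3. The difference was 0.60 (SE 0.22; limma adjusted p = 0.384), and a second, weaker Adamts4 feature differed by 0.37. Adamts8, first described as an inhibitor of blood vessel growth, stood at 9.35, 9.38, 9.04 and 9.19 against 8.59, 8.86, 8.66 and 9.07 in wild-type lungs. Again only wild-type replicate 4 and Fgf10+/- replicate 3 crossed, and the difference was 0.45 (SE 0.14; limma adjusted p = 0.302). Its second feature was dim, at a mean of 3.54, and differed by -0.06.

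Adamts15, a versican-cleaving enzyme and the direct neighbour of Adamts8 on chromosome 9, stood at 8.82, 8.92, 8.96 and 9.38 in Fgf10+/- lungs, against 8.25, 8.72, 8.58 and 9.05 in wild-type lungs. The groups overlapped through wild-type replicate 4, with a difference of 0.37 (SE 0.20) that was 0.24 without wild-type replicate 1. Adamts1, the founding member of the family, did not separate them: it stood at 10.54, 10.57, 10.77 and 11.02 against 10.47, 10.85, 10.62 and 10.94 in wild-type lungs, a difference of 0.0028 (SE 0.16). Adamts5, the main aggrecanase of mouse cartilage and the direct neighbour of Adamts1 on chromosome 16, differed by 0.40 (SE 0.43), by -0.019 without wild-type replicate 1, by 0.21 without Fgf10+/- replicate 3 and by 0.64 without wild-type replicate 2. Adamts9, a widely expressed versican-cleaving enzyme, differed by 0.14 (SE 0.15), by 0.065 without Fgf10+/- replicate 2, by 0.081 without wild-type replicate 1 and by 0.26 without Fgf10+/- replicate 3.

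Of the procollagen N-proteinases, which remove the amino-terminal propeptide of fibrillar procollagens, none passed, and the difference between any 2 of them was not tested. Adamts2 stood at 12.03, 11.97, 11.60 and 11.91 in Fgf10+/- lungs, against 11.15, 11.42, 11.27 and 11.60 in wild-type lungs. Fgf10+/- replicate 3 and wild-type replicate 4 met at 11.60, and the other 3 arrays of each group were apart. The difference was 0.52 (SE 0.15; limma adjusted p = 0.256), with an adjusted p of 0.0147 under those robust settings, and between 0.114 and 0.775 under the other alternatives. A second Adamts2 feature was dim (3.78) and differed by 0.11, so the mean of both was 0.31. Adamts14 differed by -0.09 (SE 0.20) and Adamts3 was dim.

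Among the other ADAMTS enzymes, Adamts7, which cuts cartilage oligomeric matrix protein and is known from vascular smooth muscle, had the second smallest p of all members. It stood at 5.91, 5.45, 5.89 and 5.98 in Fgf10+/- lungs, against 4.98, 4.96, 5.05 and 5.45 in wild-type lungs. Only Fgf10+/- replicate 2 and wild-type replicate 4 met, and the difference was 0.70 (SE 0.17; limma adjusted p = 0.199). Adamts17, whose human gene is mutated in a short-stature eye syndrome, stood at 9.98, 10.07, 9.83 and 10.03 against 9.78, 10.18, 9.77 and 9.96 in wild-type lungs. The groups overlapped, with a difference of 0.05 (SE 0.13) that ran from 0.00065 to 0.14 with each library left out. Its second feature, with a mean of 4.91, differed by 0.45, so the average of both was 0.25. Adamts10, an enzyme tied to fibrillin-1 microfibrils, differed by 0.03 (SE 0.18) and Adamts19 by 0.37 (SE 0.22). The Adamts19 difference ran from 0.27 without Fgf10+/- replicate 1 to 0.58 without Fgf10+/- replicate 3. Adamts19 has 10 features, 9 of them higher in Fgf10+/- lungs, and their average differed by 0.24. The sources used here do not say whether the 10 features are different probes or repeat spots of 1 probe, so they may not be separate measurements.

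**Figure D2:**
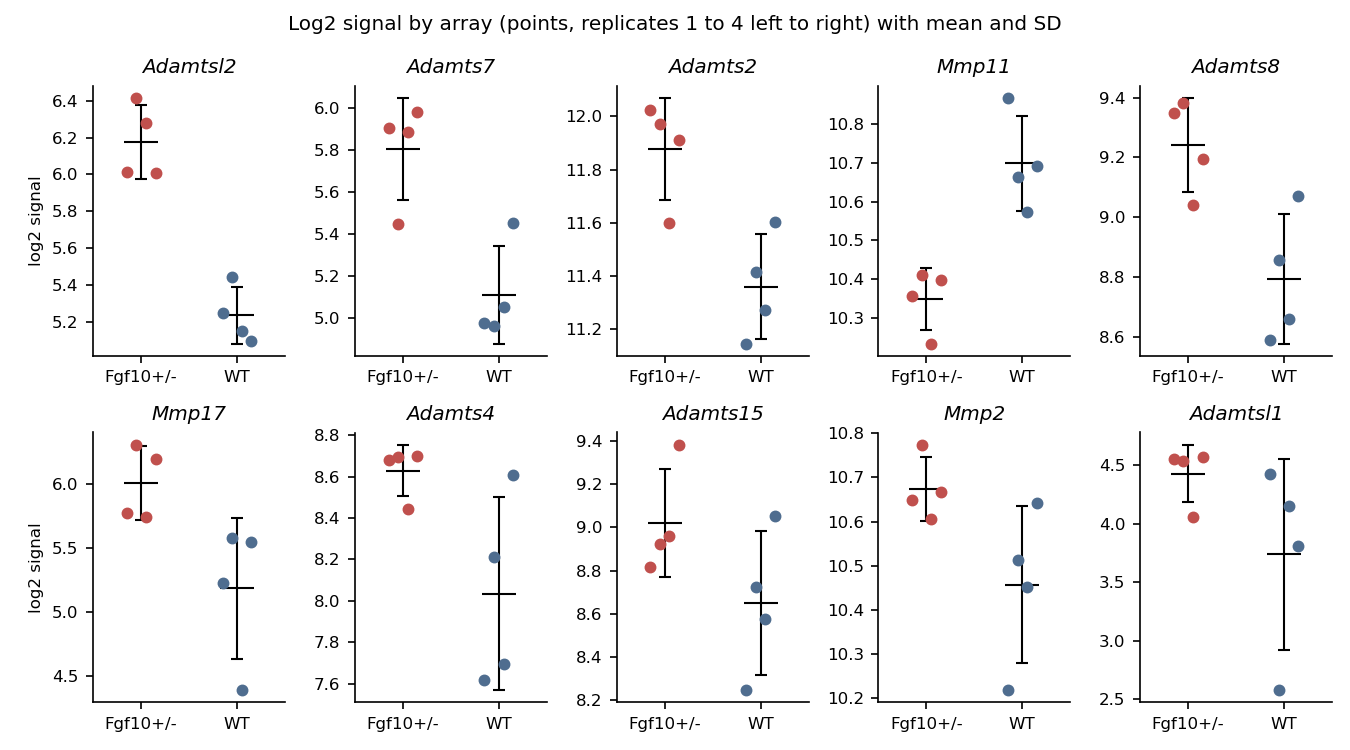
Log2 signal (vertical axes, scaled per gene) in each Fgf10+/- array (left, red) and each wild-type array (right, blue) for the 10 members with the smallest p among those not dim; bars give the mean and SD of 4 arrays. Adamtsl2, Mmp17 and Mmp11 show no overlap, while in Adamts2, Adamts4 and Adamts8 wild-type replicate 4 reaches the lowest Fgf10+/- value.

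Mmp11 did not pass, and of the 14 members with a lower mean it was the 1 with an unadjusted p under 0.05. It encodes stromelysin-3, an MMP of stromal cells that is activated inside the cell by furin and does not cut most classical matrix proteins. Its log2 signals were 10.36, 10.41, 10.23 and 10.40 in Fgf10+/- lungs, against 10.87, 10.66, 10.57 and 10.69 in wild-type lungs. The groups did not overlap, at 10.35 ± 0.08 against 10.70 ± 0.12 (SD, n = 4 each). The difference was -0.35 (SE 0.11; two-sided exact permutation p = 0.0286; limma adjusted p = 0.275), and the adjusted p was 0.0406 under the robust settings and between 0.116 and 0.524 under the other alternatives. The second Mmp11 feature was also apart, at -0.27. Mmp3, Mmp7 and Mmp10, the other stromelysins and matrilysin, were dim.

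Among the membrane-type MMPs, Mmp17 was higher in every Fgf10+/- lung than in any wild-type lung. It encodes MT4-MMP, which is held at the cell surface by a lipid anchor. Its values were 5.77, 6.30, 5.74 and 6.20 in Fgf10+/- lungs, against 5.22, 5.57, 4.39 and 5.55 in wild-type lungs. Wild-type replicate 3 lay lowest, and the gap between the groups was narrow. The difference of 0.82 (SE 0.28; two-sided exact permutation p = 0.0286; limma adjusted p = 0.336) was 0.56 without wild-type replicate 3. Mmp14 encodes MT1-MMP, the membrane collagenase that activates pro-MMP2. It stood at 8.29, 8.57, 8.35 and 8.56 in Fgf10+/- lungs, against 7.94, 8.40, 8.16 and 8.31 in wild-type lungs, with overlap and a difference of 0.24 (SE 0.14) that was 0.15 without wild-type replicate 1. Mmp15 differed by -0.07 (SE 0.18).

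The gelatinase gene Mmp2, a product of fibroblasts, stood at 10.65, 10.77, 10.61 and 10.67 in Fgf10+/- lungs, against 10.22, 10.51, 10.45 and 10.64 in wild-type lungs. Wild-type replicate 4 alone lay inside the Fgf10+/- range, and the difference of 0.22 (SE 0.12) had a limma adjusted p of 0.56 and was 0.14 without wild-type replicate 1. Mmp9, the gelatinase stored in neutrophil granules, gave no settled direction, since its chosen feature differed by 0.24 (SE 0.45) while 8 of its 10 features were lower and their average differed by -0.13. Only 1 of those 10 features had a mean of at least 4, and they too may be repeat spots of 1 probe. Mmp8, the neutrophil collagenase, stood at 5.61, 3.43, 4.63 and 4.71 in Fgf10+/- lungs, against 5.87, 4.20, 4.94 and 3.94 in wild-type lungs. It varied more within each group than between them, with a difference of -0.14 (SE 0.54). The summed neutrophil markers, of which 7 of 8 were not dim, stood at 15.59, 14.71, 14.95 and 14.73 against 15.13, 14.71, 15.03 and 14.47 in wild-type lungs, as the log2 of their summed linear signals. In wild-type lungs replicate 1 was highest for both, and in Fgf10+/- lungs replicate 1 was. The part of those cells in the Mmp8 values was not tested. Mmp23, an MMP without the usual cysteine switch, stood at 8.61, 8.75, 8.61 and 8.49 against 8.69, 8.45, 8.24 and 8.47 in wild-type lungs, a difference of 0.15 (SE 0.12) with overlap that was 0.079 without wild-type replicate 3.

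For each TIMP the values of the groups overlapped. Timp2, which both inhibits MMP2 and helps MT1-MMP to activate it, stood at 13.24, 13.35, 13.35 and 13.46 in Fgf10+/- lungs, against 13.06, 13.24, 13.13 and 13.34 in wild-type lungs. The groups overlapped, with a difference of 0.16 (SE 0.11; limma adjusted p = 0.658), and the second Timp2 feature differed by 0.29. Timp3, which binds the matrix, differed by 0.06 (SE 0.14), and its difference ran from 0.0093 without wild-type replicate 3 to 0.18 without wild-type replicate 2. Timp1, an inhibitor that is induced in inflamed tissue, differed by 0.35 (SE 0.32), and by 0.01 without Fgf10+/- replicate 1, which stood at 8.89 where the other 7 arrays lay between 7.36 and 7.78. That library also had the highest summed level of mesothelial markers, 13.38, where the other 7 lay between 12.26 and 12.91, and of neutrophil markers. The part of those cells in the Timp1 value was not tested.

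Of the dim members, 15 had a higher and 9 a lower mean in Fgf10+/- lungs, with differences between -0.57 (Adamts18) and 0.74 (Mmp3). The 2 with an unadjusted p under 0.05 were Mmp10 (0.52, SE 0.22) and Mmp12 (0.46, SE 0.19), a stromelysin and the macrophage elastase. They were 8.33% of the 24, where 3.65% of all 7838 dim genes were higher at that p. The second Mmp12 feature differed by -0.26, and the average of both by 0.097. Differences this close to the array floor are compressed by an unknown amount, and the related genes Mmp1a and Mmp1b may share signal. Over all 20 members with more than 1 feature, the features of 11 agreed in sign.

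**Figure D3:**
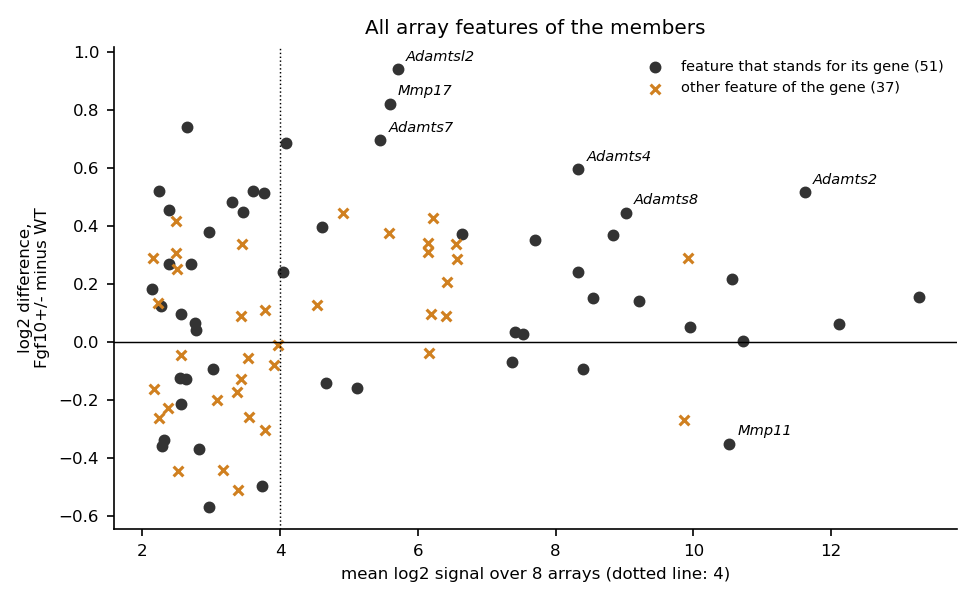
Difference in log2 signal, Fgf10+/- minus wild type (vertical axis), against the mean log2 signal over 8 arrays (horizontal axis) for all 88 features of the members; dots are the 51 features that stand for their genes and crosses the other 37. Left of the dotted line at 4 the differences scatter on both sides of 0, and both Mmp11 features lie below 0.

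In bulk RNA, fewer cells of a type and less RNA per cell cannot be told apart. Of 16 marker lists, 2 were higher and 6 lower in every Fgf10+/- lung than in any wild-type lung. Levels here are the log2 of summed linear signals. The 6 fibroblast markers, 5 of them with a higher mean, stood at 16.32, 16.22, 16.09 and 16.25 in Fgf10+/- lungs, against 15.76, 15.93, 15.72 and 16.10 in wild-type lungs. As for Adamts2, Adamts4 and Adamts8, Fgf10+/- replicate 3 was lowest in its group, wild-type replicate 4 was highest, and the groups met there. Markers of smooth muscle and myofibroblasts (6 of 6 with a higher mean) ranged from 14.86 to 14.94 in Fgf10+/- lungs and from 14.67 to 14.80 in wild-type lungs. Proliferation markers (6 of 6 higher) ranged from 12.73 to 12.86 in Fgf10+/- lungs and from 11.92 to 12.36 in wild-type lungs. Alveolar type 2 markers (7 of 7 lower) ranged from 16.62 to 16.70 in Fgf10+/- lungs and from 16.83 to 16.91 in wild-type lungs. The markers of cardiac muscle (6 of 6 lower) ranged from 12.98 to 13.55 in Fgf10+/- lungs and from 13.77 to 14.26 in wild-type lungs, and those of ciliated cells (6 of 6 lower) from 11.24 to 11.45 in Fgf10+/- lungs and from 11.58 to 12.07 in wild-type lungs. Markers of alveolar type 1 cells (5 of 6 lower), club cells (4 of 4 lower) and skeletal muscle (6 of 7 lower) were also apart, with differences of -0.34, -0.14 and -1.61 in the mean summed level. Skeletal muscle markers, 3 of them dim, ranged from 7.13 to 7.36 in Fgf10+/- lungs. In wild-type replicate 4 they stood at 12.13, and in the other wild-type lungs between 7.73 and 7.82, so the -1.61 leans on that library. The part of the listed cell types in the values of the proteinases was not tested. Leaving out wild-type replicate 4, the highest wild-type array for Adamts4, Adamts2 and Adamts8, necessarily raised their differences, to 0.79, 0.60 and 0.54. With each library left out in turn, the difference ran from 0.46 to 0.79 for Adamts4. It ran from 0.45 to 0.61 for Adamts2 and from 0.38 to 0.54 for Adamts8.

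**Figure D4:**
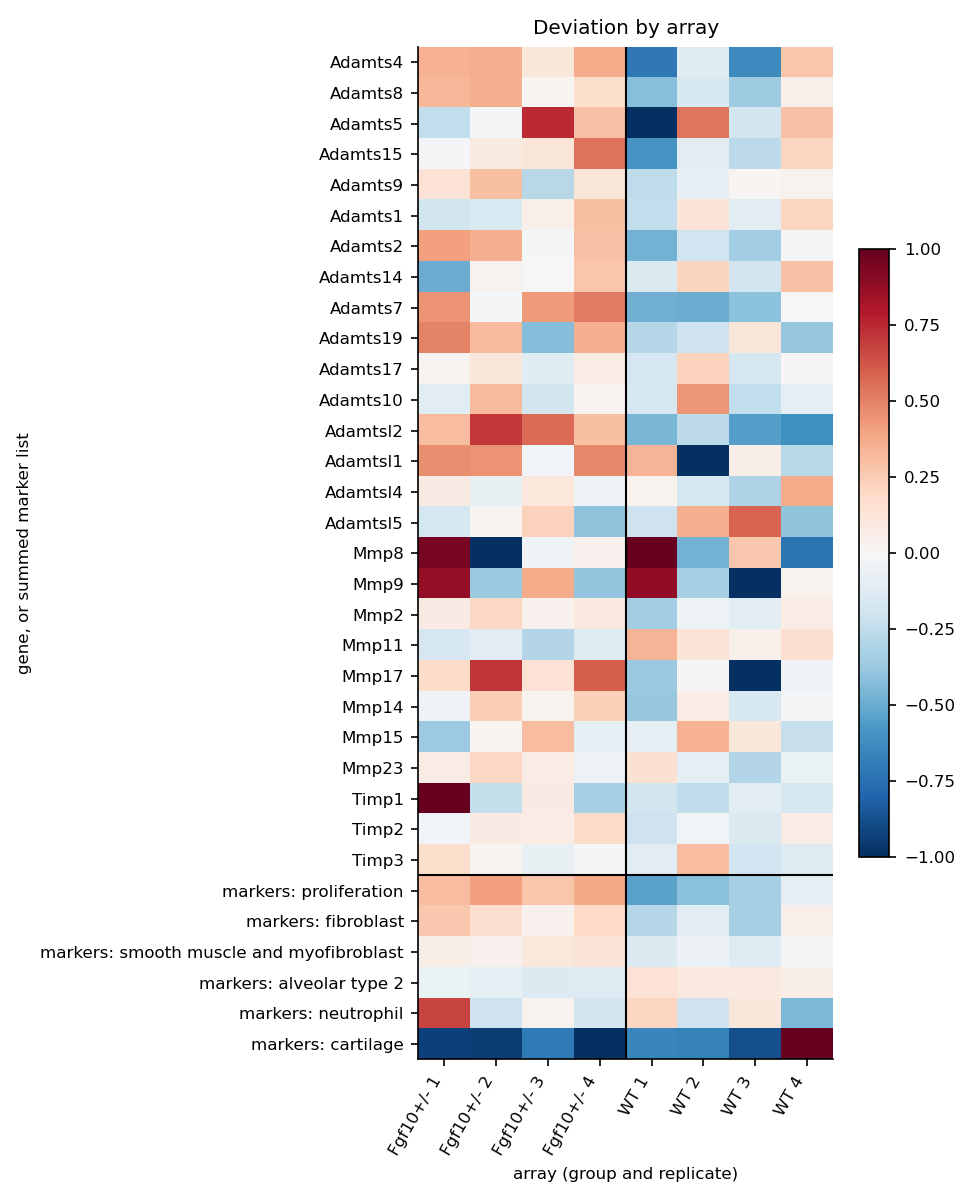
Log2 deviation of each array from the mean of all 8 (colour, limits -1 and 1) for the 27 members not dim and, below the line, for 6 summed marker lists; Fgf10+/- arrays are left and wild-type arrays right of the vertical line. Wild-type replicates 1 and 3 are the bluest columns, with mean deviations over the 27 members of -0.18 and -0.22, and wild-type replicate 4 is closest to the Fgf10+/- arrays at -0.04.

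Other genes of matrix proteolysis, a list of activators, inhibitors, related proteinases and substrates, showed few differences. Of 47 measured genes, 0 passed an adjusted p of 0.05, and at an unadjusted p under 0.05 there were 3 higher (6.38%, against 4.74% of all genes) and 0 lower. Serpine2, which encodes the thrombin and plasminogen activator inhibitor protease nexin-1, stood at 9.29, 9.47, 9.42 and 9.38 in Fgf10+/- lungs, against 8.77, 8.88, 8.78 and 9.12 in wild-type lungs. The groups were apart, with a difference of 0.50 (SE 0.11; limma adjusted p = 0.189). Plat, the tissue plasminogen activator that SERPINE2 inhibits, stood at 8.76, 8.50, 8.14 and 8.22 against 7.95, 7.79, 7.88 and 7.73 in wild-type lungs. Those groups were apart too, with a difference of 0.56 (SE 0.15; limma adjusted p = 0.241). Ctsk, the collagen-cutting cathepsin K, differed by 0.44 (SE 0.17), and Adam12, a membrane-bound relative of the ADAMTS enzymes, by -0.35 (SE 0.16), or by -0.07 as the average of its features. Under the robust settings the adjusted p was 0.0173 for Serpine2 and 0.0456 for Plat. Vcan, the versican gene, differed by 0.13 (SE 0.15), and Reck, a membrane-anchored MMP inhibitor, by -0.20 (SE 0.15). Comp and Acan, which encode cartilage proteins cut by ADAMTS enzymes, stood at 8.95 and 6.60 in wild-type replicate 4, whereas in the other 7 libraries neither exceeded 3.37.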

How the data were processed

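Per the labels' protocols, lung RNA was amplified with a low-input Agilent kit, and Cy3 was the dye. The deposited values are log2 signals of 62976 features, from 1.51 to 15.99. The authors had quantile normalized them between arrays, as their nearly identical sorted columns show (gaps of at most 0.0042). The submitters' processing notes name limma, with no version. The sources used here give no background correction, spot flags, slide, scan date, litter or sex, so no batch was tested.

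Of 31465 features with 1 platform symbol, 40 with a blank on any array were left out (0 of them members). Symbols were updated by transcript accession through RefSeq (GRCm38.p6), which matched 29050 features and 82 of the 88 member features. Members kept their platform symbols by rule. The feature with the highest mean stood for its gene. limma 3.58.1 in R 4.3.3 (lmFit on group, eBayes, two-sided, Benjamini-Hochberg over 20842 genes, threshold 0.05) tested Fgf10+/- minus wild type, and SE is its moderated standard error. An exact permutation test over 70 assignments stood beside it for single genes. With 4 arrays per group, precision is limited. The fit was tested on simulated data of independent arrays with each gene's own spread. At an adjusted p under 0.05 it recovered 35 of 100 genes given a log2 change of 1, and 81 of 100 given 2. Of the 127 genes called there, 11 had been given no change. Values in every array are given for members with a mean log2 of at least 4 whose groups did not overlap or whose p was among the 10 smallest, and for the member with the highest mean in each role group. From the list of other proteolysis genes, the 4 with the smallest p are named, while Vcan, Reck, Comp and Acan were chosen after their values were seen. Members and lists were chosen with earlier results of these data known. Alternatives were other ways to combine features, 2 centrings, a filter on dim genes, a variance trend with robust settings, the replicate number as a block, and leaving out libraries.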

Additional observations from a re-analysis of the deposited data

Results flagged for a closer look

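Values of 3 members in 1 array each stood far from the other 3 of their group, by Dixon's ratio of gap to range, computed in 112 groups of 4. Chance flags about 1 in 20 groups, or 5.6 here. Adamts4 stood at 8.44 in Fgf10+/- replicate 3, below 8.68 to 8.70 in the others. Adamtsl1 stood at 4.06 in the same library, below 4.53 to 4.57. Timp3 stood at 12.42 in wild-type replicate 2, above 11.92 to 11.995.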

How the results depend on the processing

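The count of all genes past an adjusted p of 0.05 was 104 of 13004 when genes with a mean log2 under 4 were left out, 414 with the variance trend (and robust settings), and 0 to 1 with each library left out, the 1 being without wild-type replicate 4. Members past it numbered 1 (Adamtsl2) with the filter and 3 (Adamtsl2, Adamts2 and Mmp11) with the trend, and 0 under every other alternative run. Members at an unadjusted p under 0.05 were 5 with features averaged per gene (10.6% of all genes) and 6 to 10 with each library left out (8.74% to 12.8% of all genes). Members whose groups did not overlap were 5 after median centring (7.38% of all genes), 13 without both wild-type replicate 4 and Fgf10+/- replicate 3, and 3 to 11 with each library left out. The list of other proteolysis genes had 5 at an unadjusted p under 0.05 with averaged features, 6 with every feature on its own (10.4% of all features), 7 with the trend (12.2% of all genes), 6 without both libraries (12.2%), and 2 to 7 with each left out. The median difference over members ran from 0.12 to 0.21 with each library left out. Same-numbered arrays of the groups correlated by 0.018 to 0.11 in their deviations. Replicates 1 and 4 correlated best with their own number in both directions, and replicates 2 and 3 did not. Correlations this weak cannot decide whether the numbers pair the samples. With the replicate number as a block, 0 genes passed, 10 members had an unadjusted p under 0.05, and 5 genes of the proteolysis list did, against 11.8% of all genes. Differences of several members changed sign, among them Adamts5, at 0.40 in the main fit, and Mmp9, at 0.24. Mmp9 was at -0.13 with averaged features. With each library left out, Adamts1 ran from -0.096 to 0.076, Adamts5 from -0.019 to 0.64, Adamts10 from -0.073 to 0.18 and Adamts14 from -0.20 to 0.058. Adamtsl4 ran from -0.061 to 0.16, Adamtsl5 from -0.32 to 0.0077, Mmp8 from -0.48 to 0.25, Mmp9 from -0.076 to 0.58 and Mmp15 from -0.18 to 0.042. The cause was not tested. Signal near the array floor limits the 24 dim members.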
